A study of Mus musculus with 11 samples.

Results

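The 38 genes described here encode the contractile apparatus of skeletal muscle and the calcium and energy systems that serve it. They were matched by gene symbol to a fixed list, and the list was chosen with earlier results of these data known. Their counts set beside all features are therefore descriptions. In mammary tumours of PyMT mice, 36 of the 38 had a probe, out of 19057 genes with a probe on the array. Myh2 and Cacna1s had no probe under their symbol in the annotation used here and are not analysed. Where a gene had several probes, the brightest one on average across the 11 arrays was taken. The study profiled 11 tumours of female mice aged 12 weeks, each on 1 Illumina bead array. Of these, 6 came from PyMT mice, which carry the polyoma middle T oncogene and form mammary tumours spontaneously. The other 5 came from PyMT/SIRT6 mice, which carry the same oncogene and in addition the Sirt6BAC allele, from which the deacylase SIRT6 is overexpressed. The oncogene was therefore present in both groups, and the PyMT group was wild-type for the Sirt6BAC allele. Neither the labels nor the design text name the promoter of either transgene. The labels do not say whether each tumour came from its own mouse, so p-values measure only the spread between these samples. Tumours are numbered in deposit order within a genotype, and the numbers pair nothing.

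Skeletal muscle fibres contract when calcium, released from the sarcoplasmic reticulum, binds troponin C on the thin filament and lets myosin heads of the thick filament pull on actin. Most parts of this machine exist in fast and slow isoforms encoded by separate genes, and the isoforms present tell which kind of fibre the RNA comes from. Skeletal muscle is not a part of the mammary epithelium, from which these tumours arise. In RNA from a whole tumour, fewer cells of a type and less RNA per cell cannot be told apart.

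The labels were checked first on Sirt6. Its log2 intensity ran from 7.64 to 7.88 in PyMT tumours and from 8.19 to 8.64 in PyMT/SIRT6 tumours, with no overlap. The mean was 7.76 ± 0.09 (SD) over 6 PyMT tumours and 8.37 ± 0.19 (SD) over 5 PyMT/SIRT6 tumours. The difference was 0.61 (exact two-sided permutation p = 0.00216, the smallest that this design allows). In limma's fit across all 14726 features tested its adjusted p was 0.0574, so the extra allele's own gene did not pass the threshold applied to the muscle genes. The tissue was checked on epithelial genes. Krt8, a keratin of luminal epithelium, ran from 12.23 to 13.40 and exceeded the background limit in every tumour, whereas the Epcam probe stayed at 7.15 to 7.35, at or near it. The background limit is the 95th percentile of 1287 probes of olfactory receptor genes, which mammary tumours hardly express. It lay between 7.34 and 7.36 in all 11 arrays, and 10 probes of Y-linked genes in these female mice reached at most 7.41. Values are log2 probe intensities throughout. They hold the background, so a difference between tumours is understated where the lower value is near this limit, and levels of different genes are not compared.

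The muscle genes varied far more between tumours than most genes did, and largely together. Of 33 members that passed the filter on dim features, 21 had a range of at least 2 between the lowest and the highest tumour, against 1.41% of all 14726 features tested. Their median range was 3.03, against 0.43 over all features tested. The same 4 tumours, PyMT 5 and PyMT/SIRT6 1, 4 and 5, were the highest for 27 of the 33 members, against 1.09% of all features tested. These 4 tumours were named after the values were seen, so the count is a description. The filter takes the mean over all arrays, so a dim member can pass through these 4 tumours alone. Myot, for instance, passed with a mean of 7.36 but lay between 7.12 and 7.19 in the other tumours. Tnni1, Neb and Trdn, which were flat, did not pass. The shares of tested members therefore depend partly on the filter. Over all 36 members with a probe the counts were also 21 and 27, and the median range was 2.85. PyMT/SIRT6 1 was the lowest of the 4 in all 27. PyMT 5 was the highest in 13 of them and PyMT/SIRT6 5 in 13. The mean over the 36 members was 10.36 in PyMT 5, 10.21 in PyMT/SIRT6 5, 9.62 in PyMT/SIRT6 4 and 9.06 in PyMT/SIRT6 1. In the other 7 tumours it lay between 7.42 and 8.04.

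**Figure D1:**
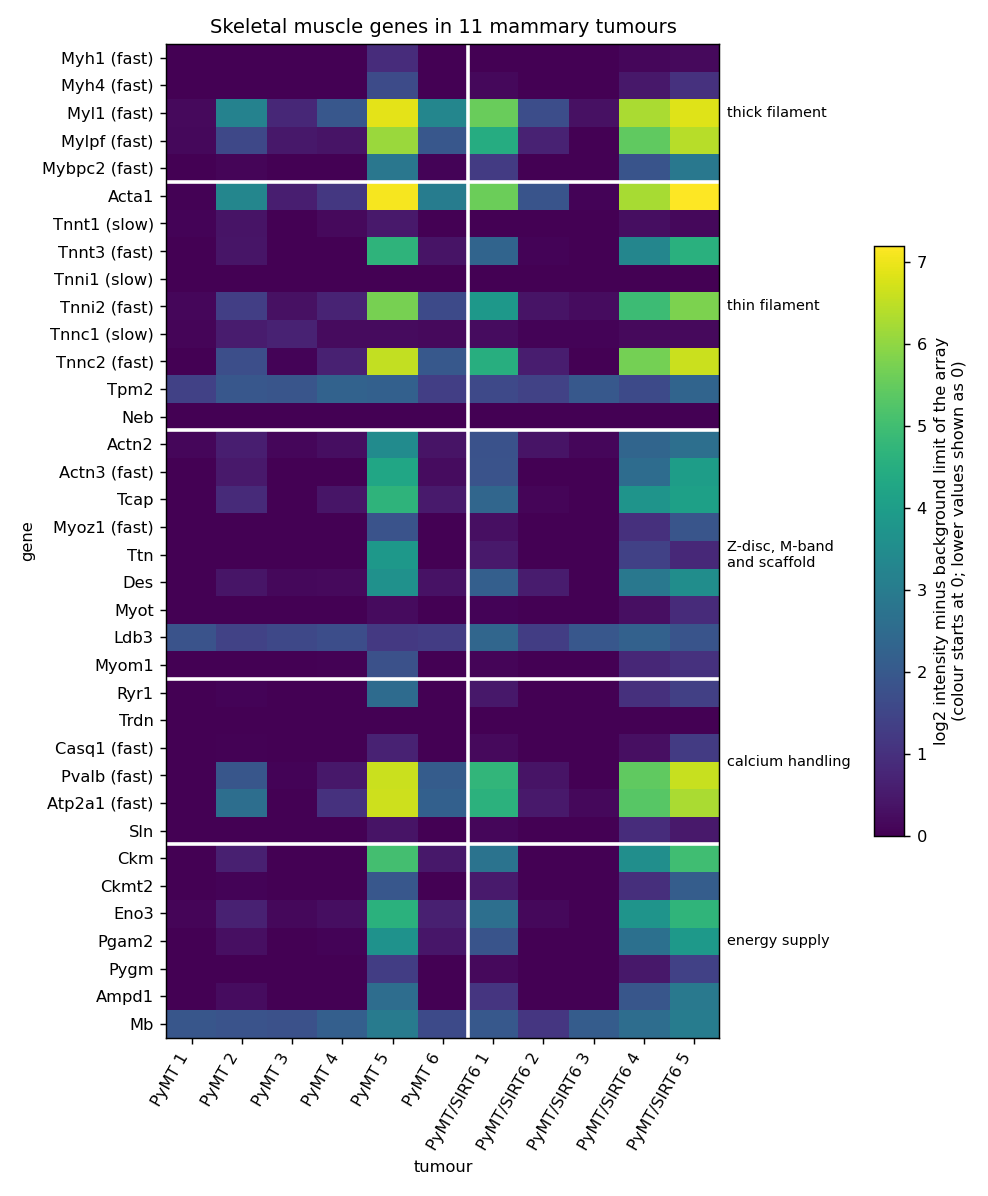
Log2 intensity of each of the 36 muscle genes (rows, by role) in each of the 11 tumours (columns), minus the background limit of that array, on a colour scale that starts at 0. Read along a row: PyMT 5 and PyMT/SIRT6 1, 4 and 5 are the brightest columns for 27 genes, while PyMT 1 and PyMT/SIRT6 3 are dark for most.

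Below the 4 highest tumours the order went on. For 16 of the 27 members the fifth and sixth tumours were PyMT 2 and PyMT 6, and these 16 included Acta1, Tnni2 and Atp2a1. The number of members above the background limit was 33 in PyMT 5, PyMT/SIRT6 4 and PyMT/SIRT6 5, 31 in PyMT/SIRT6 1 and 28 in PyMT 2. It was lowest in PyMT/SIRT6 3, at 10, and PyMT 1, at 12. The members of widest range therefore showed a graded series of tumours, whereas dimmer members separated only the highest ones from the limit. Of the 36 members, 9 exceeded the limit in all 11 tumours and 3, Tnni1, Neb and Trdn, in none.

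Since most members moved together, the stretches upstream of 4 of them are shown. Tnnc2 and Tnnc1 are the fast and slow genes of troponin C, which behaved differently, Myh4 encodes a fast myosin, and Pgam2 encodes muscle phosphoglycerate mutase. Each is the 250 bases before the gene's start in RefSeq, build GRCm38.p6, written 5′ to 3′ on the gene's strand. Capitals mark 4 motifs searched on both strands: the E-box CANNTG, which myogenic factors such as MyoD bind, TATAAA, the MEF2 site and the CArG box.
Tnnc2, chr2:164779735-164779984, minus strand: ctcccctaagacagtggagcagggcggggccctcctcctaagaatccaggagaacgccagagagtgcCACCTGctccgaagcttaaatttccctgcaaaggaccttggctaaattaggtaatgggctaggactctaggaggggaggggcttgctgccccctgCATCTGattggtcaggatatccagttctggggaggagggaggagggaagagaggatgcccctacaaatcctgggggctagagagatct
Tnnc1, chr14:31208062-31208311, plus strand: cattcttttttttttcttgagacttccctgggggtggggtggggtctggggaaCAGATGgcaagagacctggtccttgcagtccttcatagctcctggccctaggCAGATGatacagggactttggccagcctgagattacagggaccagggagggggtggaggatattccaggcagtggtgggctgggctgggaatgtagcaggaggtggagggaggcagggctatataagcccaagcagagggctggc
Myh4, chr11:67237562-67237811, plus strand: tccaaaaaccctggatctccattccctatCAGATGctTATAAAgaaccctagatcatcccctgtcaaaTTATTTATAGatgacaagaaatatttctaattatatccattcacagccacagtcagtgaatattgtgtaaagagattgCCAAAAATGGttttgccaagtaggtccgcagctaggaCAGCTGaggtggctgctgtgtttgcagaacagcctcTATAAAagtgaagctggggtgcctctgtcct
Pgam2, chr11:5803797-5804046, minus strand: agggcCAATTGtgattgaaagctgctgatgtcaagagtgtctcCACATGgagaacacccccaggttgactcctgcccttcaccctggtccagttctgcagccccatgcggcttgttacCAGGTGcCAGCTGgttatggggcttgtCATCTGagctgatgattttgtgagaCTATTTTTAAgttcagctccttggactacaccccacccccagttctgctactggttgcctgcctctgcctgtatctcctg

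The Tnnc2 and Tnnc1 windows hold 2 E-boxes each and none of the other motifs, so these letters do not separate the fast from the slow gene. The Myh4 window holds all 4 motifs, with 3 matches of TATAAA, of which 1 overlaps the MEF2 site. The Pgam2 window holds 5 E-boxes and 1 MEF2 site. A promoter was found for 28 of the 38 members. Of these 23 held an E-box (82.1%), against 66.0% of 27025 promoters of the same length. A MEF2 site stood in 5 (17.9%, against 3.01% of all promoters) and a CArG box in 4 (14.3%, against 1.40%), while TATAAA stood in 5 (17.9%, against 13.0%). A match is a description of the letters and not a bound site.

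Among thick filament genes, the myosin light chains covered the widest range. Myl1 encodes the essential light chain of fast fibres. It was 7.53, 9.91 and 14.25 (lowest, median and highest) in PyMT tumours, and 12.90, 9.07, 7.66, 13.64 and 14.19 in PyMT/SIRT6 tumours 1 to 5. Both genotypes thus reached from near the background limit to about 14, and they overlapped over nearly all of this range. Mylpf, the regulatory light chain of fast fibres, was 7.48, 8.35 and 13.46 in PyMT tumours and 11.80, 8.04, 7.29, 12.79 and 13.77 in PyMT/SIRT6 tumours. Its second probe had a range of 4.84 against 6.48 for the first, with PyMT/SIRT6 5 the highest on both. Mybpc2, fast myosin binding protein C, ran from 7.19 to 10.22.

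The myosin heavy chains, the motors themselves, exceeded the background limit in few tumours. Myh4, the heavy chain of the fastest fibres (IIb), was 7.18, 7.23 and 8.98 in PyMT tumours and 7.51, 7.21, 7.19, 7.82 and 8.38 in PyMT/SIRT6 tumours. It exceeded the limit in 4 tumours, the same 4 as above. Myh1, the heavy chain of IIx fibres, was 7.19, 7.27 and 8.25 in PyMT tumours and 7.30, 7.16, 7.12, 7.46 and 7.51 in PyMT/SIRT6 tumours. It exceeded the limit in 3 tumours, PyMT 5 and PyMT/SIRT6 4 and 5. The second Myh1 probe exceeded the limit in no tumour, with a range of 0.19 and PyMT 1 highest. Myh1 and Myh4 lie in 1 cluster of related genes, and a probe of one may also bind RNA of another.

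Of the thin filament, Acta1, skeletal muscle actin, had the widest range of any member, 7.17. It was 7.37, 9.44 and 14.45 in PyMT tumours and 12.93, 9.23, 7.43, 13.61 and 14.54 in PyMT/SIRT6 tumours. The lowest tumour was PyMT 1 and the highest PyMT/SIRT6 5, and each genotype held tumours near both ends.

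Troponin is the calcium switch of the thin filament, and here fast and slow isoforms parted. Tnnc2, fast troponin C, which binds calcium, was 7.25, 8.54 and 13.88 in PyMT tumours and 11.86, 7.92, 7.22, 13.03 and 13.96 in PyMT/SIRT6 tumours. Tnnc1, troponin C of slow and cardiac muscle, was 7.45, 7.55 and 8.05 in PyMT tumours and 7.59, 7.43, 7.43, 7.53 and 7.52 in PyMT/SIRT6 tumours. The highest tumours for Tnnc1 were PyMT 3 and PyMT 2, at 8.05 and 7.90, and not those highest for Tnnc2. Tnni2, fast troponin I, the inhibitory subunit, was 7.46, 8.36 and 13.07 in PyMT tumours and 11.19, 7.72, 7.59, 12.28 and 13.12 in PyMT/SIRT6 tumours. Tnni1, slow troponin I, was 7.04, 7.08 and 7.11 in PyMT tumours and 7.07, 7.10, 7.03, 7.06 and 7.13 in PyMT/SIRT6 tumours, below the limit in all 11. Whether this probe detects Tnni1 where it is expressed was not tested. Tnnt3, fast troponin T, which holds the complex on tropomyosin, was 7.11, 7.54 and 12.02 in PyMT tumours and 9.68, 7.41, 7.21, 10.64 and 11.90 in PyMT/SIRT6 tumours. Tnnt1, slow troponin T, was 7.25, 7.47 and 7.85 in PyMT tumours and 7.34, 7.24, 7.20, 7.61 and 7.49 in PyMT/SIRT6 tumours. PyMT 5 was the highest for both genes, but PyMT 2 came next for Tnnt1, at 7.72, and only after the 4 highest tumours for Tnnt3.

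**Figure D2:**
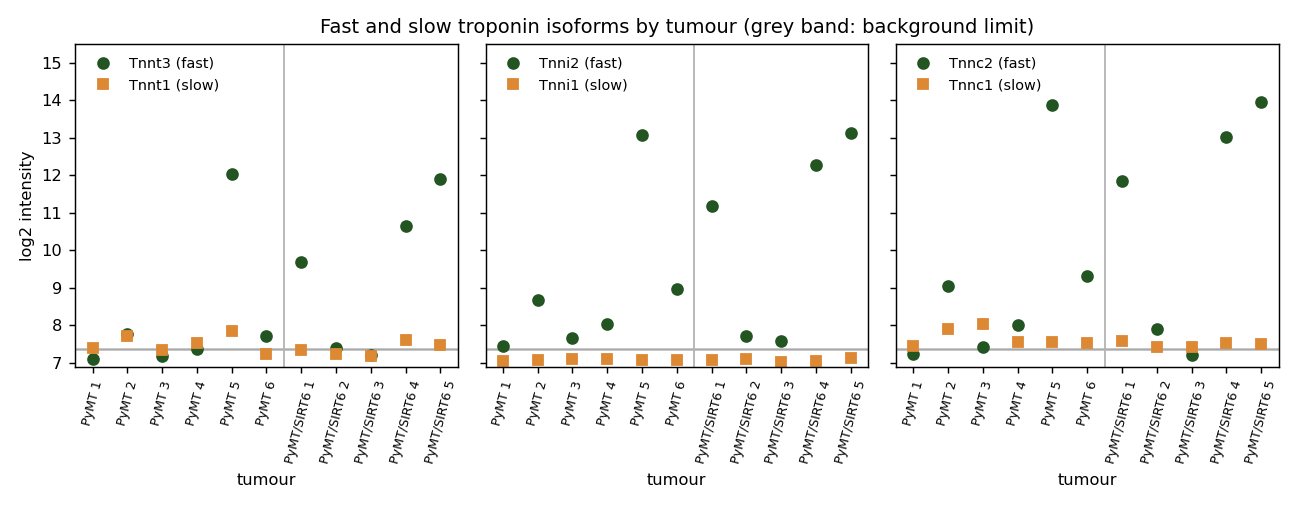
Log2 intensity of the fast (circles) and slow (squares) gene of troponin T, I and C in each tumour, with the background limit as a grey band. The fast genes spread over 4.91, 5.66 and 6.75, while the slow genes spread over 0.65, 0.10 and 0.62 (Tnnt1, Tnni1 and Tnnc1).

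Over all members, the 13 fast isoform genes with a probe had ranges from 1.13 to 6.80 (median 4.91), and 12 of them had the same 4 tumours highest. The 3 slow isoform genes had ranges from 0.10 to 0.65, and none had those 4 tumours highest. Of these, Tnni1 exceeded the limit in no tumour and could show no order. Tnnt1 exceeded it in only 6 tumours, and PyMT 5 was its highest. Only Tnnc1 exceeded it in all 11. Of the remaining thin filament genes, Neb, which encodes the giant filament protein nebulin, was below the limit in all tumours on its only probe. Tpm2, beta tropomyosin, ran only from 8.69 to 9.67 on the probe taken.

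The Z-disc anchors thin filaments and the M-band holds thick filaments in register. Of 9 genes of the Z-disc, M-band and scaffold, 8 had the 4 tumours highest. Tcap, or telethonin, which caps titin at the Z-disc, was 7.28, 7.80 and 12.01 in PyMT tumours and 9.73, 7.46, 7.22, 11.06 and 11.43 in PyMT/SIRT6 tumours. Actn3, the alpha-actinin of fast fibres, was 7.23, 7.42 and 11.59 in PyMT tumours and 9.18, 7.33, 7.19, 9.89 and 11.36 in PyMT/SIRT6 tumours. Both were highest in PyMT 5 and lowest in PyMT/SIRT6 3. Actn2, the alpha-actinin found in all fibres, had a range of 3.35. Des, the intermediate filament desmin, had one of 3.63. Ttn, the giant spring titin, was 7.17, 7.30 and 11.18 in PyMT tumours and 7.83, 7.24, 7.22, 8.73 and 8.17 in PyMT/SIRT6 tumours. Here PyMT 5 stood alone, and the next tumour was PyMT/SIRT6 4 at 8.73. The ranges of the Z-disc adaptor Myoz1 (2.16), the M-band protein Myom1 (1.93) and the Z-disc protein Myot (1.12) were smaller. Ldb3, a Z-disc adaptor, was the exception to the 4 tumours, and PyMT 5 had its lowest value, 8.54.

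In calcium handling, the cytosolic buffer and the pump had the widest ranges. Pvalb, parvalbumin, which binds calcium in fast fibres, was 7.22, 8.54 and 13.95 in PyMT tumours and 12.09, 7.73, 7.15, 12.78 and 13.94 in PyMT/SIRT6 tumours. Atp2a1, the SERCA1 pump of fast fibres that returns calcium to the reticulum, was 7.26, 8.96 and 13.99 in PyMT tumours and 11.98, 7.85, 7.51, 12.66 and 13.62 in PyMT/SIRT6 tumours. The 4 highest tumours were the same for both, and PyMT 2 and PyMT 6 followed at 9.28 or more. The release channel Ryr1 had a range of 2.71, and the calcium store protein Casq1 one of 1.39. Sln, sarcolipin, a small inhibitor of the pump, was the only member with its highest value in PyMT/SIRT6 4, at 8.26. On this probe its PyMT values were 7.07, 7.10 and 7.72. The second Sln probe exceeded the limit in no tumour, with a range of 0.19 and PyMT 2 highest. Trdn, triadin, which ties the release channel to the store, stayed below the limit in all tumours on its only probe.

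All 7 genes of energy supply had their highest value in PyMT 5 or PyMT/SIRT6 5. Ckm, muscle creatine kinase, which buffers ATP, was 7.24, 7.58 and 12.39 in PyMT tumours and 10.08, 7.25, 7.18, 10.89 and 12.34 in PyMT/SIRT6 tumours. Eno3, the muscle enolase of glycolysis, was 7.43, 7.80 and 11.94 in PyMT tumours and 9.97, 7.51, 7.34, 11.06 and 12.06 in PyMT/SIRT6 tumours. For both genes 7 tumours lay below 8.1 and 4 above 9.9. Ampd1, the muscle AMP deaminase, ran from 7.24 to 10.24. The glycolytic Pgam2 had a range of 3.98, the mitochondrial creatine kinase Ckmt2 2.28 and the glycogen phosphorylase Pygm 1.58. Mb, the oxygen store myoglobin, was different in kind: it was 8.95, 9.22 and 10.33 in PyMT tumours and 9.34, 8.50, 9.44, 9.91 and 10.37 in PyMT/SIRT6 tumours. Its lowest value lay well above the limit, and PyMT/SIRT6 1, high for most members, was only sixth.

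The tumours with most muscle signal did not have the same profile. PyMT 5 and PyMT/SIRT6 5 differed by less than 0.25 in 16 of the 27 members with the common order. Ttn, however, was 3.01 higher in PyMT 5, Ryr1 1.16, Actn2 0.84, Myom1 0.74 and Myh4 0.60 higher. Conversely Myot was 0.69 and Casq1 0.58 higher in PyMT/SIRT6 5. Other probes of these genes gave 2.43 for Ttn, 1.39 and 0.66 for Ryr1, 1.09 for Actn2 and 0.35 for Myom1. The remaining probes of Ryr1 (−0.12 and −0.01), Actn2 (−0.10) and Myot (0.02) showed no such difference, and their ranges were at most 0.23. Those of Ttn gave −0.11 to 0.39. For Actn3 the probes split in sign, at 0.23, 0.12 and −0.58. Those of Myl1, which counts among the 16, split too, at 0.05 on the probe taken and −0.37 and −0.62 on the others. These are differences between single tumours, each measured on 1 array, with no replicate error and no test.

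Several members had probes that disagreed, and the probe with the highest mean was not always the one that moved. Of 16 members with more than 1 probe, 11 had at least 2 probes with a range of 1 or more. The Tpm2 probe taken ran from 8.69 to 9.67, whereas the second ran from 7.24 to 12.41 with PyMT 5 highest. The Ldb3 probe taken ran from 8.54 to 9.72 with PyMT/SIRT6 1 highest, whereas its next brightest probes reached 8.68 in PyMT/SIRT6 5 and 8.22 in PyMT 5. Of 12 Ttn probes only 2 had a range of 1 or more. Which transcripts each probe detects was not examined. The other 3 Ldb3 probes were nearly flat, with ranges of 0.25, 0.18 and 0.20. The third Tpm2 probe ran only from 7.15 to 7.61 but had the same 4 tumours highest. By the probe taken, therefore, Tpm2 and Ldb3 do not show the pattern seen on other probes. These are both other probes of Tpm2 and 2 of the 5 others of Ldb3.

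**Figure D3:**
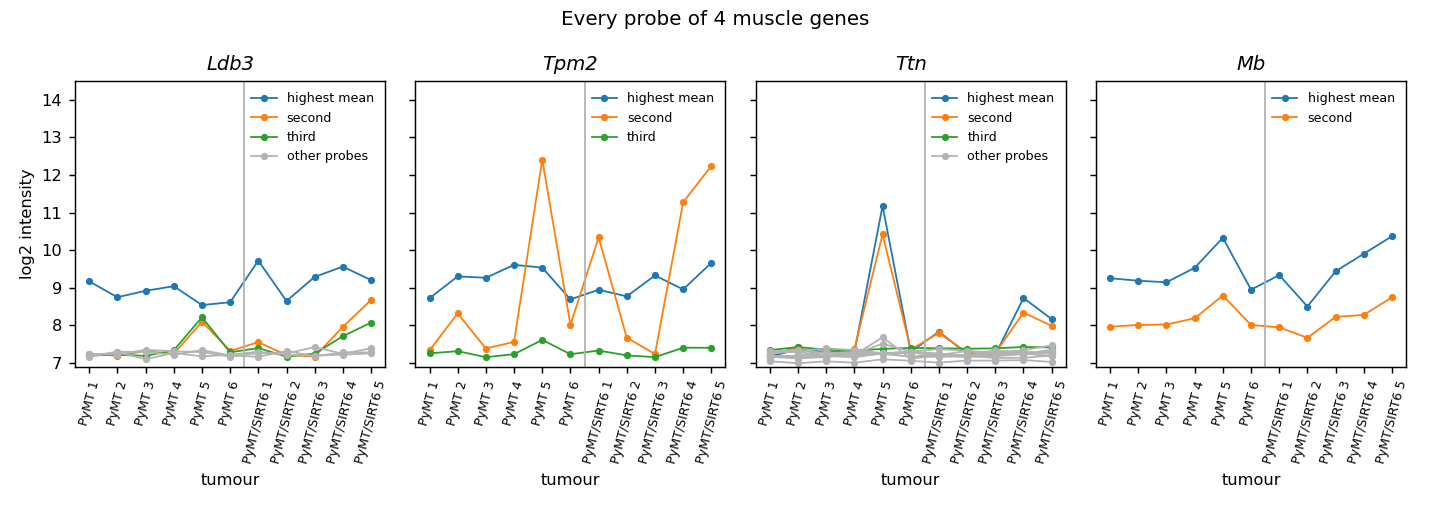
Log2 intensity of each probe of Ldb3, Tpm2, Ttn and Mb in each tumour, coloured by the order of their means. For Tpm2 the second probe reaches 12.41 while that of highest mean stays between 8.69 and 9.67, and for Ttn 2 of 12 probes reach 11.18 and 10.42 in PyMT 5.

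Other muscle genes, from lists that hold none of the members, were examined the same way. Of 87 listed genes 78 had a probe and 50 were tested. Among the 50, 21 had the same 4 tumours highest, against 1.09% of all 14726 features tested. Among all 78 with a probe, 27 did. The cytochrome oxidase subunit of striated muscle, Cox6a2, was 7.31, 7.74 and 11.61 in PyMT tumours and 9.73, 7.50, 7.28, 10.74 and 11.68 in PyMT/SIRT6 tumours. The LIM protein gene Fhl1 had a range of 3.81, the tropomodulin Tmod4 3.09, the LIM protein Csrp3 2.71 and the reticulum protein Hrc 2.44. All 5 had the same 4 tumours highest. Cox8b, a subunit found in muscle and brown fat, had a range of 3.86 but reached 10.44 in PyMT 4, a tumour low in most members.

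The slow and cardiac muscle genes tested did not share the order of most fast genes. Of 12 slow and cardiac-type genes with a probe, 5 were tested and 4 exceeded the limit in no tumour, so these 4 could not show an order. None of the 5 tested had the 4 tumours highest, where 1.09% of all features tested did. Their ranges ran from 0.50 (Tpm1) to 0.92 (Tpm3), wider than the median of 0.43 over all features tested. Tpm1, Tpm3 and Atp2a2 exceeded the limit in all 11 tumours, also in those low in most members. Whether their RNA came from muscle fibres was not tested. The slow and cardiac myosin heavy chain Myh7 stayed between 7.22 and 7.37. Myl2 and Myl3, light chains of slow fibres and heart, exceeded the limit in only 3 and 5 tumours. Both were highest in PyMT 2, at 7.96 and 7.95. They were at 7.56 and 7.49 in PyMT 5 and at 7.61 and 7.66 in PyMT/SIRT6 5. PyMT 2 was also the second highest tumour for Tnnt1 and Tnnc1, while its Acta1 value of 10.63 was below that of the 4 highest tumours. Of 4 developmental genes with a probe, 1 had the 4 tumours highest, the cardiac actin Actc1, with a range of 0.30. Of 10 regulators of myogenesis and satellite cell genes, 6 were below the limit in every tumour, among them Pax7, which marks satellite cells, and Myod1. Myf6 was the only one of the 10 with the 4 tumours highest, with a range of 0.39. Mef2c, a muscle transcription factor that other cells also use, ran from 7.76 to 8.85, with PyMT/SIRT6 5 and PyMT 5 highest.

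Markers of other cell types were set beside these values, and their part in the muscle signal was not tested. None of 8 luminal epithelial genes had the 4 tumours highest, where 1.09% of all features tested did. The mean of that list ran from 10.38 to 11.21 in PyMT and from 10.70 to 11.07 in PyMT/SIRT6 tumours. In the smooth muscle and pericyte list Des, itself a member, was the only 1 of 9 genes with that order. Without Des the mean of the other 8 was highest in PyMT 2 and PyMT 4, at 8.74 in each, and 8.44 in PyMT 5. It ran from 8.26 to 8.74 in PyMT and from 8.18 to 8.50 in PyMT/SIRT6 tumours. Acta2, smooth muscle actin, was lowest in PyMT/SIRT6 1, at 11.29, and highest in PyMT 2, at 14.00. The adipocyte list had 8 genes with a probe, and none had the order of the muscle genes. Its mean was highest in PyMT 4, at 8.56, and next in PyMT 5, at 8.40, and it ran from 7.56 to 8.26 in PyMT/SIRT6 tumours. The brown adipocyte genes Ucp1 and Cidea were highest in PyMT 5, at 8.53 and 9.12. Over the whole brown adipocyte list of 5 genes the mean ran from 7.29 to 7.96 in PyMT and from 7.31 to 7.59 in PyMT/SIRT6 tumours. The keratinocyte genes Krt10 and Lor were highest in PyMT 3, at 11.71 and 9.18, a tumour low in muscle genes. Of the other lists, none of 7 basal genes, 5 keratinocyte genes, 4 Schwann cell genes, 6 fibroblast genes, 5 endothelial genes, 4 macrophage genes and 5 T and B cell genes had the 4 tumours highest. Probes that never exceeded the limit could show no order, namely 2 of the keratinocyte list and 1 each of the adipocyte, Schwann cell and T and B cell lists.

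The comparison of genotypes asks whether the extra Sirt6 allele goes with a different level of these genes. None of the 33 tested members passed limma's test at an adjusted p of 0.05, where 0.0136% of the 14726 features did (adjusted p from 0.983 to 0.992 for the members). At an unadjusted p under 0.05 there was 1 member, Ldb3, against 4.43% of all features. No member had groups that did not overlap, where 0.292% of features lay wholly higher and 0.197% wholly lower in PyMT/SIRT6 tumours. The difference, PyMT/SIRT6 minus PyMT, was above 0 for 28 members and below 0 for 5, against 46.9% of all features above 0. Its median was 0.63 over the 33 tested members and 0.42 over all 36, against −0.01 over all tested features. Because the members share their high tumours, these counts are not independent of each other.

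For the brightest members the interval of the difference was several log2 units wide. Acta1 averaged 9.88 ± 2.59 (SD) over the 6 PyMT tumours and 11.55 ± 3.06 (SD) over the 5 PyMT/SIRT6 tumours, a difference of 1.66 ± 1.41 (SE) with a 95% interval from −1.38 to 4.70. With 1 array left out it ran from 0.92 without PyMT/SIRT6 5 to 2.69 without PyMT/SIRT6 3. Tnnc2 differed by 1.64 ± 1.37, Pvalb by 1.55 ± 1.40 and Ckm by 1.19 ± 1.07. Without PyMT/SIRT6 5 these were 0.84, 0.75 and 0.50, and without PyMT 5 they were 2.58, 2.50 and 2.00. The Ttn difference was −0.09 ± 0.63, but 0.55 without PyMT 5. Ldb3 differed by 0.45 ± 0.18 (95% interval 0.06 to 0.84, limma adjusted p = 0.983), on the probe that does not follow the other members. The intervals of the other 32 spanned 0. They do not show that the genotypes are alike: the Acta1 interval holds both no difference and a large one. Myh4, at 0.11 ± 0.32, had the other sign, −0.082, without PyMT/SIRT6 replicate 5, and Myh1, at −0.11 ± 0.17, was at 0.060 without PyMT 5. In all, 7 of the 33 tested members changed sign when some array was left out, 3 of them (Myh1, Tpm2 and Ttn) without PyMT 5.

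**Figure D4:**
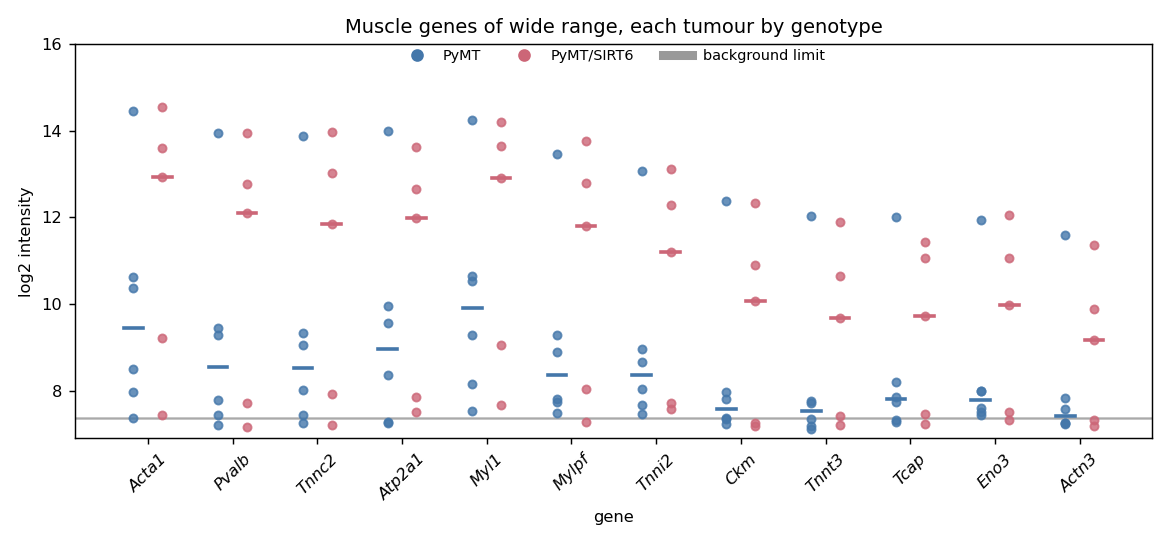
Log2 intensity of 12 muscle genes in each PyMT (blue, n = 6) and PyMT/SIRT6 (red, n = 5) tumour, with group medians as bars and the background limit as a grey line. In each gene 1 PyMT tumour and 3 PyMT/SIRT6 tumours form the upper points, and both genotypes reach down towards the limit.

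The range between tumours was wide within each genotype. The mean over the 36 members ran from 7.42 to 10.36 in PyMT tumours, a range of 2.94, and from 7.43 to 10.21 in PyMT/SIRT6 tumours, a range of 2.79. Its group means were 8.16 ± 1.10 (SD, n = 6) and 8.78 ± 1.23 (SD, n = 5), a difference of 0.62. Genotype held a median of 8.73% of the variance of a tested member, against 5.29% for all tested features. For 32 of 33 tested members the range between tumours exceeded 3 times the difference between genotypes, as it did for 93% of all features tested, so this count does not set the members apart.

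**Figure D5:**
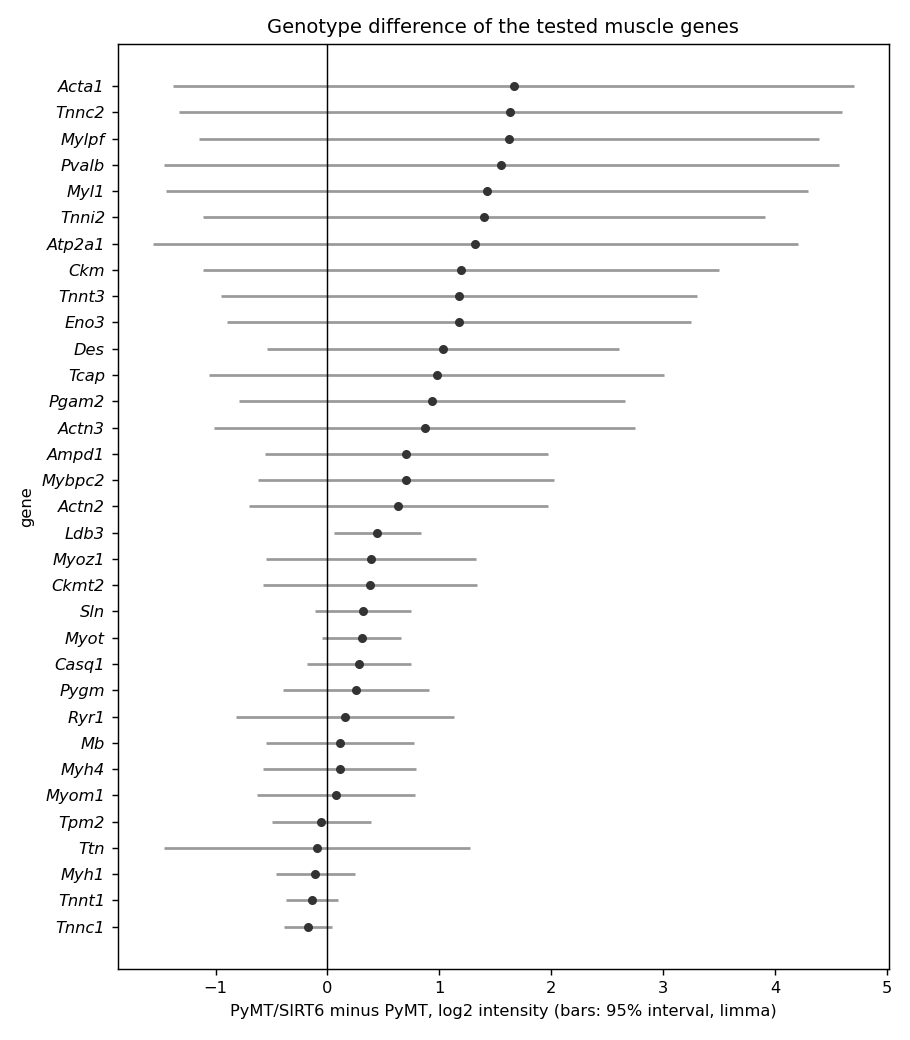
Difference between PyMT/SIRT6 and PyMT tumours in log2 intensity for the 33 tested muscle genes, with 95% intervals from limma. Points run from −0.17 (Tnnc1) to 1.66 (Acta1), and only the Ldb3 interval does not span 0.

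PyMT 5 was the only PyMT tumour among the 4 highest, and the comparison leant on it. Among the 6 PyMT tumours it lay apart on the high side, with a gap to the next of more than 0.625 of their whole range, for 25 of the 33 tested members, against 1.32% of all features tested (6.15% for any PyMT tumour on either side). Without it, 20 of 32 tested members had an unadjusted p under 0.05, against 5.75% of all features, and the median difference was 1.15, but still none passed after adjustment (lowest limma adjusted p = 0.832). With array weights, which give atypical arrays less influence, 15 of 33 had an unadjusted p under 0.05, against 9.34% of all features, and again none passed (lowest limma adjusted p = 0.498). PyMT 5 was singled out because it was the high PyMT tumour in these genes, so leaving it out raises the difference for most of them. The filter was applied again without PyMT 5 and Myh1 did not pass, so the share of 20 of 32 also depends partly on the filter. Without PyMT/SIRT6 5 the median difference was 0.28, and 1 of 32 tested members had an unadjusted limma p under 0.05. The count was 0 of 33 without PyMT/SIRT6 1 and 0 of 32 without PyMT/SIRT6 4. The share over all features was not taken for these fits, so these counts have no background beside them. Of the other muscle genes, with all 11 arrays, none of the 50 tested passed, where 0.0136% of all features did. An unadjusted limma p under 0.05 was reached by 1, Myog, against 4.43% of all features. The Myog difference was −0.08, lower in PyMT/SIRT6 tumours, and its values stayed between 7.21 and 7.44, near the background limit. The differences of the 50 were above 0 for 39, against 46.9% of all features, with a median of 0.08.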

How the data were processed

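Per the labels' protocols, biotinylated cRNA was made from the RNA of frozen mammary tumours and read on Illumina bead arrays (Mouse WG-6 v2.0). The authors deposited linear probe intensities. How background was treated and arrays were normalized, and the slides and scan dates, were not given in the sources used here. Sorted values agreed within 1.08% between arrays, so no further scaling was applied, and the medians lay at about 157.5. The number of arrays limits the precision. Of 45281 probes 34885 had a single gene symbol, 18 several and 10378 none, and 34807 of the first matched RefSeq (GRCm38.p6) with 0 symbols changed. One probe per gene and unnamed probes gave 29453 features on the log2 scale. The lower 50% by mean over all arrays (below 7.31) were left out, leaving 14726, of which 33 were members. Tnni1, Neb and Trdn did not pass.

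The difference between genotypes was fitted with limma 3.58.1 (R 4.3.3; lmFit, eBayes with intensity trend, no covariate), with Benjamini-Hochberg adjustment over all 14726 features and a threshold of 0.05, tested first on simulated data. Members, lists and tests were chosen with earlier results of these data known. Members described in full are the myosin heavy chains, the troponin pairs and the 2 of widest range in each role. Up to 3 genes of widest range per other muscle list, and up to 2 of highest mean per cell type list, could be named. Ttn, Mb, Sln, Myh7, Myl3, Myod1, Pax7, Myog, Epcam and the promoters were chosen after their values were seen. Alternatives were other filters, probe rules, background, scaling and eBayes settings, array weights and each array left out.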

Additional observations from a re-analysis of the deposited data

Results flagged for a closer look

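In the 6 PyMT tumours, PyMT 5 stood apart on the high side for 25 of the 36 members, its gap to the next tumour taking more than 0.625 of the group's whole range. All 25 were among the 33 tested. By the same measure PyMT 5 stood apart on the high side for 1.32% of all 14726 features tested, and any PyMT tumour on either side for 6.15%. Chance gives such a gap in about 1 in 20 groups, and the members are not independent of each other. In the thick filament this share was 0.893 for Myh1, 0.945 for Myh4, 0.698 for Mylpf and 0.934 for Mybpc2. Among the fast troponins it was 0.867 for Tnnt3, 0.73 for Tnni2 and 0.686 for Tnnc2. Of the Z-disc and scaffold, Actn2 had 0.856, Actn3 0.863, Tcap 0.807, Myoz1 0.883, Ttn 0.954, Des 0.892, Myot 0.861 and Myom1 0.925. In calcium handling, Ryr1 had 0.912, Casq1 0.789, Pvalb 0.669 and Sln 0.632. Of the energy genes, Ckm had 0.855, Ckmt2 0.901, Eno3 0.876, Pgam2 0.86, Pygm 0.887 and Ampd1 0.871. For the mean over all members the share was 0.787. Among the 5 PyMT/SIRT6 tumours only Casq1 passed the corresponding limit of 0.71, with PyMT/SIRT6 5 high (0.733).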

How the results depend on the processing

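Under all 22 alternatives 0 members passed limma's adjusted threshold, with 0 to 20 at an unadjusted p under 0.05. Among these alternatives the share over all features was taken only without PyMT 5 (5.75%) and with array weights (9.34%). Quantile normalization and median centring could change little, because sorted values already agreed within 1.08% between arrays. The other eBayes settings leave the differences themselves unchanged. The median difference over tested members ran from 0.28 (without PyMT/SIRT6 replicate 5) to 1.15 (normexp background). Of the tested myosin heavy chains, troponins and members of widest range in their role, where an alternative gave a value, the difference changed sign only for Myh4 and Myh1. With 1 array left out, Myh4 ran from −0.082 (without PyMT/SIRT6 replicate 5) to 0.40 (without PyMT replicate 5). Myh1 ran from −0.16 (without PyMT/SIRT6 replicate 5) to 0.060 (without PyMT replicate 5, where it did not pass the filter and has no test). Some filters and probe rules gave no value for Myh1, Myh4, Tnnc1 or Tnnt1, and Tnni1 was not tested. Ttn, at −0.09, was 0.22 after normexp correction and 0.30 when arrays were weighted. With 1 array left out it ran from −0.32 (without PyMT/SIRT6 replicate 4) to 0.55 (without PyMT replicate 5). It was also above 0 without PyMT/SIRT6 replicate 2 (0.05) or 3 (0.06). The range of the mean over members was 4.24 with normexp, against 2.94, and 2.67 to 2.94 otherwise. The cause was not tested. The Sirt6 difference ran from 0.46 to 1.04, with an exact permutation p of at most 0.00794. No paired analysis was possible because the labels give the genotypes no shared replicate numbers. Signals near the background limit bound what the dim members can show.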
